A study of Mus musculus with 98 samples.

Results

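Transcripts of 10 secreted modulators of Wnt signalling, *Sfrp1*, *Sfrp2*, *Sfrp4*, *Sfrp5*, *Frzb*, *Wif1*, *Dkk2*, *Dkk3*, *Rspo1* and *Rspo3*, were followed through the stroma of the mouse thymus by cell subtype, age, sorted population and genotype. They were taken by gene name, not by their values, and all 10 were present in each data set: 10 of 22231 genes in the single-cell age series, 10 of 20760 in the single-cell genotype data and 10 of 39179 in the bulk data. In the age series, nonepithelial stroma (live cells negative for Ter119, CD45 and EpCAM) of WT mice was captured at 3 embryonic ages (E12.5, E13.5, E16.5) and 2 later ones, P0 (newborn) and W4 (4 weeks). There was 1 library at E12.5 and 1 at E13.5, each from thymi pooled over litters, and 2 at each later age, from separate thymi. The genotype data hold Ter119-CD45- cells of newborn mice, from 3 animals labelled *Tbx1+/-* *Crkl+/-* and 3 WT littermates, stored in a fixative before capture; both alleles were constitutive (a *Tbx1* lacZ allele and a *Crkl* null allele) and so not limited to any cell type. The bulk data hold WT CD45- cells sorted at P0 and W4 into CD31+ endothelium, Ly51+gp38- cells, gp38+CD26+ and gp38+CD26- fibroblasts, and cortical and medullary epithelium (cTEC, mTEC), with mTEChi and mTEClo at W4 besides, at 6 libraries per group. WT mice were C57BL/6, and the number of animals behind each bulk library is not given in the sources used here.

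Wnt ligands bind Frizzled receptors together with the co-receptors Lrp5 and Lrp6 and stabilise β-catenin, and in the thymus they are best known for their part in epithelial identity and in early thymocyte development. The members act on this pathway from outside the cell. The Sfrp proteins, among them Frzb (also called Sfrp3), carry a Frizzled-like domain and bind Wnt ligands, as does Wif1 through a domain of its own. Dkk2 binds Lrp5 and Lrp6 and mostly blocks signalling, Dkk3 is a divergent family member with little effect on these co-receptors, and the R-spondins Rspo1 and Rspo3 strengthen Wnt signals by binding Lgr receptors and the ligases Znrf3 and Rnf43, which otherwise remove Frizzled from the membrane.

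In GRCm38 the genes lie on 8 chromosomes: *Frzb* at chr2:80411970-80447625 (minus strand), *Sfrp2* at chr3:83766321-83774316 (plus), *Dkk2* at chr3:132085292-132180304 (plus), *Rspo1* at chr4:124986430-125009099 (plus), *Dkk3* at chr7:112116017-112159057 (minus), *Sfrp1* at chr8:23411502-23449632 (plus), *Rspo3* at chr10:29452416-29535867 (minus), *Wif1* at chr10:121033960-121100650 (plus), *Sfrp4* at chr13:19623104-19632994 (plus) and *Sfrp5* at chr19:42197971-42202252 (minus). RefSeq promoters on GRCm38.p6 were matched for 6 of the 10. The 250 bases before the start are shown for 3 members of different families that moved with age, *Sfrp2*, *Dkk2* and *Rspo1*, so that their base composition can be compared; capitals mark TATAAA.
Sfrp2: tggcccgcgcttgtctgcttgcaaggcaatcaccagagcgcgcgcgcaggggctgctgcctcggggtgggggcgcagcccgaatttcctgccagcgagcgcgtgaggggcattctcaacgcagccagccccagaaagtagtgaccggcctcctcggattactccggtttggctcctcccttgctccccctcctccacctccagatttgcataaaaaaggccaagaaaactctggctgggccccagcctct
Dkk2: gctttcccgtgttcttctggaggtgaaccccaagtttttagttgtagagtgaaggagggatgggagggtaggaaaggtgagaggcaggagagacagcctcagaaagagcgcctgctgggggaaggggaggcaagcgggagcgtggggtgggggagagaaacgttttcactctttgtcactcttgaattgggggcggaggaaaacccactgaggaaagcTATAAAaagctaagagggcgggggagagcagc
Rspo1: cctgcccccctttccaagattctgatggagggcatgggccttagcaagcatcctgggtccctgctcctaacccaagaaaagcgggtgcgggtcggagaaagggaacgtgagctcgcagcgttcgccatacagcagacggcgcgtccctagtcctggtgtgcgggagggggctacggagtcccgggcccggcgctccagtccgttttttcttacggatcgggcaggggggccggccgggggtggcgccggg
The windows were chr3:83766071-83766320, chr3:132085042-132085291 and chr4:124986180-124986429, all on the plus strand. GC content was 63.6, 55.6 and 66.8% and the number of CpG 16, 7 and 22, against medians of 52.4% and 6.00 over 32851 promoters of the same length. The *Rspo1* window held more CpG than 85.2% of promoters, that of *Sfrp2* more than 74.6% and that of *Dkk2* more than 53.7%. TATAAA, searched on both strands, was found in the windows of *Dkk2* and *Wif1* and in 12.4% of all promoters. CTTTGA, the core of the letters bound by Tcf and Lef factors, was found on either strand in the window of *Frzb* alone among the 6, and in 13.8% of all promoters.

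Libraries of the age series held 1997 to 6587 cells and 28583048 to 93040640 UMIs, those of the genotype data 1687 to 5661 cells and 4978011 to 31418527 UMIs. Of the 84 bulk libraries, 83 entered the fit with 5785352 to 15852166 counts, and replicate 2 of gp38+CD26+ at W4, with 25702 counts, was left out, so that group has n = 5. Cell barcodes shared between libraries made up 0.430% of the age series and 0.206% of the genotype data. In the age series most subtype markers were highest in the subtype named for them (*Foxd3* and *Sox10* were highest in NC, the neural crest subtype, *Upk3b* and *Msln* in Mes, the mesothelium, and *Pi16* in CapFb4, a capsular fibroblast), although *Rgs5* and *Cspg4* were higher in vascular smooth muscle (VSM) than in pericytes (Pc), and CapFb2a held little of the capsular marker *Dpp4* (0 to 49.6 CPM by library). NC cells were few, 10 in each E16.5 library, 39 and 25 at P0 and 7 in each W4 library, and Mes cells numbered 2 to 7 in 3 of the 6 libraries from E16.5 on.

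Replicate 1 of P0 stood apart from the other libraries of the age series. From a list of cartilage genes drawn up after the data were seen, *Col2a1*, *Acan*, *Ucma*, *Col11a2* and *Col9a1* were found there in all 19 subtypes and *Matn1* in 15. Over the whole library *Col2a1* was at 193 CPM against 3.42 in replicate 2, *Ucma* at 20.2 against 0.474 and *Acan* at 19.8 against 0.947. Not every gene of the list was highest there: *Col9a1* was at 37.3 CPM in it and at 95.03 at E12.5 and 36.7 at E13.5, and *Col2a1* at 59.4 at E12.5. Spread over subtypes was seen early too, with *Col9a1* in 18 of 18 subtypes at E13.5 and *Col2a1* in 17 of 18 at E12.5. *Sfrp2* in arterial endothelium (EnA) was at 500 CPM in replicate 1 and 22.9 in replicate 2, and *Sfrp1* there at 221 and 29.4. The fibroblast genes *Dcn* (816 and 29.4 CPM) and *Col1a1* (1116 and 32.7) were higher in the same EnA cells of replicate 1, and their part in the difference was not tested. The part of this library in the age results was not tested as a cause, and counts of calls are given with and without it.

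Levels are given in CPM, the count of a gene per 1000000 UMIs of all cells of that subtype in the same library, as mean ± SD over libraries with at least 5 such cells, all ages together. On this scale the 10 members were spread over 6 sites of highest level (shown in the plot of mean levels by gene and subtype). *Sfrp1* and *Sfrp5*, both Wnt-binding, were highest in NC, *Sfrp2* in CapFb4, *Sfrp4*, *Frzb* and *Dkk3* in CapFb2a, *Dkk2* in CapFb1c, *Rspo1* in Mes and *Rspo3* in CapFb3. *Wif1* was formally highest in NC, from replicate 1 of P0. The 7 capsular fibroblast subtypes (CapFb) held 91.3% of the UMIs of *Sfrp4*, 73.5% of those of *Sfrp2* and 61.7% of those of *Sfrp1*. The 4 medullary subtypes (MedFb) held 12.2% of *Sfrp1* and 2.89% of *Sfrp2*, and their largest shares were 18.2% of *Dkk3* and 16.4% of *Rspo3*. These shares are not set against the share of all UMIs that the subtypes held.

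**Figure D1:**
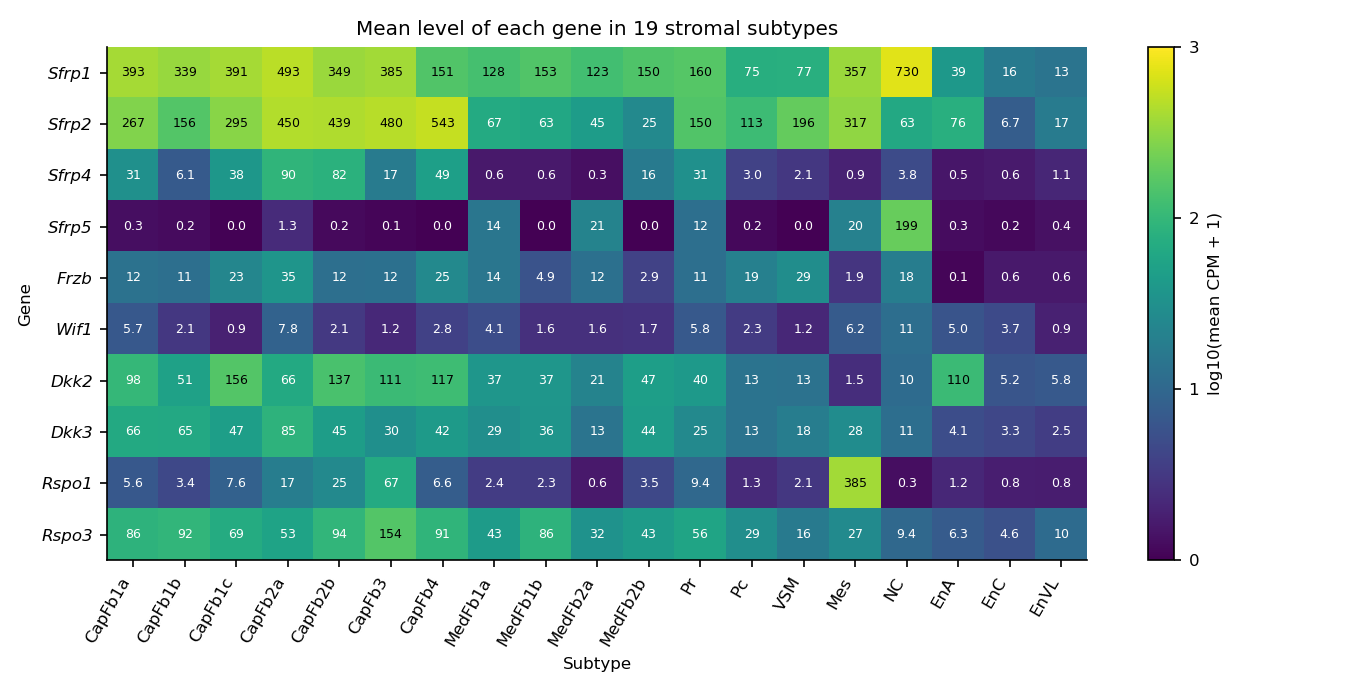
Mean level of each member (rows) in each of the 19 subtypes of the age series (columns), coloured by log10 of mean CPM + 1 and with the mean CPM printed in each cell. *Sfrp1* at 730 CPM and *Sfrp5* at 199 CPM stand out in NC and *Rspo1* at 385 CPM in Mes, while *Sfrp2* and *Sfrp4* are high along the capsular fibroblasts.

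The order of levels was clear at the top for few members. *Rspo1* in Mes (385 ± 140 CPM, SD, n = 7) stood 5.77-fold above the next subtype, CapFb3 (66.7 ± 61.1, n = 8), and was highest there in every library in which Mes reached 5 cells. *Sfrp5* in NC (199 ± 170, n = 8) stood 9.59-fold above MedFb2a (20.8 ± 55.2) and was highest in 6 of 8 libraries. For the other members the first and next subtypes differed by less than the larger of their SDs over libraries: *Sfrp1* by 1.48-fold (NC 730 ± 227, CapFb2a 493 ± 246), *Sfrp2* by 1.13-fold (CapFb4 543 ± 554, CapFb3 480 ± 323), *Sfrp4* by 1.09-fold (CapFb2a 90.1 ± 150.8, CapFb2b 82.4 ± 96.8), *Frzb* by 1.23-fold (CapFb2a 35.4 ± 72.5, VSM 28.7 ± 48.99), *Dkk2* by 1.14-fold (CapFb1c 156.2 ± 41.8, CapFb2b 137.1 ± 65.2), *Dkk3* by 1.29-fold (CapFb2a 84.8 ± 40.2, CapFb1a 65.6 ± 34.04) and *Rspo3* by 1.65-fold (CapFb3 154 ± 114, CapFb2b 93.7 ± 126.8).

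These SDs cover all ages together. Differences between ages were tested with edgeR in the 17 subtypes that held enough cells (NC and Mes did not), on the UMIs summed per subtype and library, with Benjamini-Hochberg adjustment over all genes of a subtype and a threshold of 0.05. Across all ages 118 pairs of member and subtype differed and 14 were not called (7 without replicate 1 of P0, where fewer could be tested), beside 55.3% of all gene and subtype pairs tested. Between P0 and W4, 36 pairs rose, beside 13.7% of all pairs, 34 fell, beside 13.9%, and 62 were not called (66 calls in all without replicate 1 of P0). Between E16.5 and P0, 32 rose (6.63% of all pairs) and 6 fell (5.99%), and 32 calls were made in all without replicate 1 of P0. Between the early ages (E12.5 and E13.5) and E16.5, 11 rose (20.9%) and 46 fell (15.3%) of 92 tested. With 1 library at each early age, the spread between libraries at those ages could not be measured. The SEs and p-values of this step do not cover it. Adjacent steps share the libraries of the age between them. When each library in turn was left out, 23 of the 36 rises and 11 of the 34 falls from P0 to W4 were called every time, as were 10 of 32 and 2 of 6 from E16.5 to P0. For the step from the early ages only the 6 libraries from E16.5 on were left out in turn, with 9 of 11 and 36 of 46 called every time; no refit was run without the E12.5 or the E13.5 library, so nothing is known of these calls without either. Every single-cell change named for a subtype was called in all the refits run for its step unless stated otherwise.

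**Figure D2:**
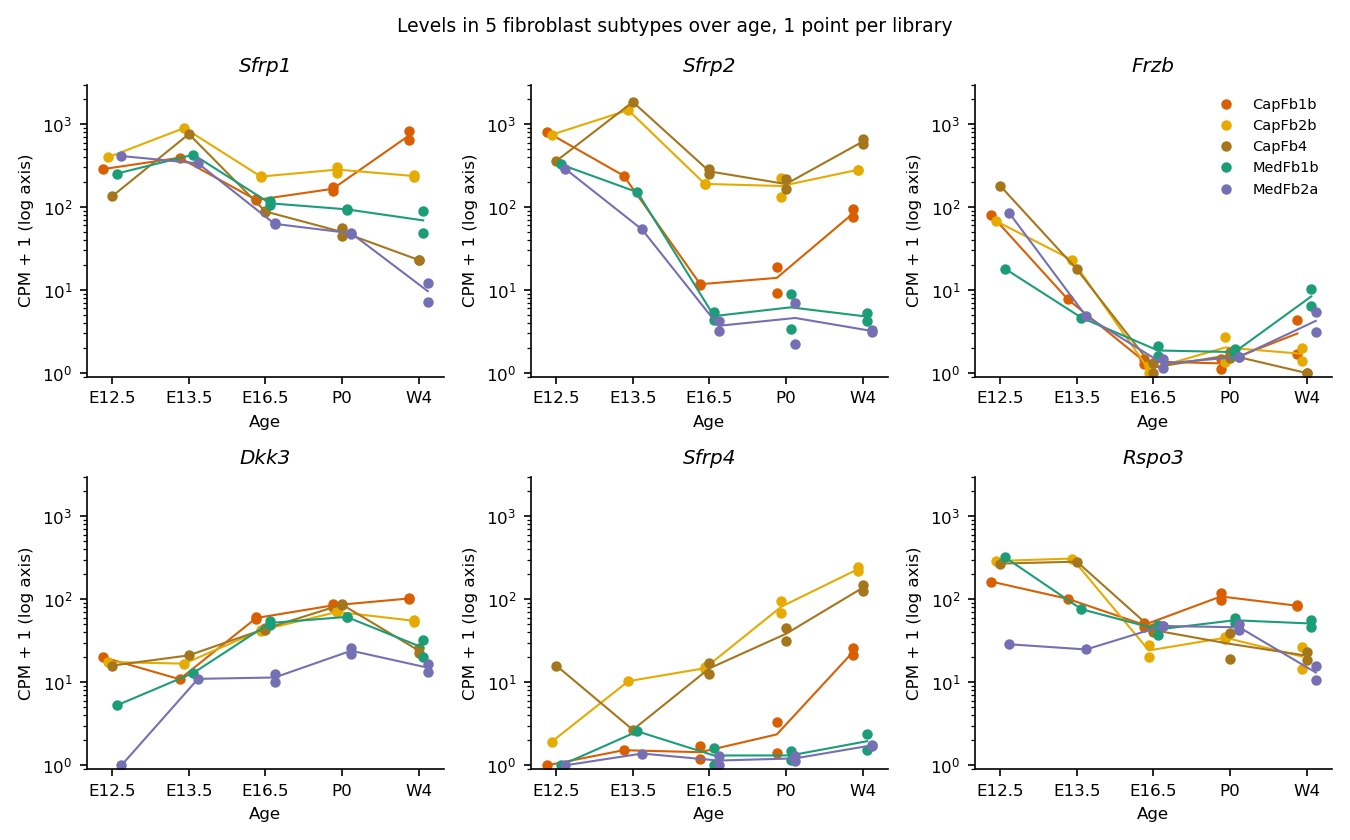
Level (CPM + 1, log axis) against age for *Sfrp1*, *Sfrp2*, *Frzb*, *Dkk3*, *Sfrp4* and *Rspo3* in 5 fibroblast subtypes, 1 point per library and a line through the mean of each age. *Sfrp1* parts between P0 and W4, to 650 and 815 CPM in CapFb1b and to 6.22 and 11.2 in MedFb2a. *Frzb* falls in CapFb4 from 178.98 at E12.5, in 6 cells with *Pi16*, *Dpp4* and *Dpt* at 0, to 0 at W4.

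*Sfrp1*, which binds Wnt ligands and Frizzled receptors, rose in capsular fibroblasts of the CapFb1 type after birth and fell in the medullary subtypes MedFb1a and MedFb2a. In CapFb1b it was at 286 CPM at E12.5 and 392 at E13.5, 119.1 and 122.5 at E16.5, 174.96 and 155.2 at P0, and 650 and 815 at W4. Both W4 libraries lay above every earlier one, and the change from P0 to W4 was 2.14 ± 0.11 on the log2 scale (SE; adjusted p = 2.27e-08), after one of -1.08 ± 0.12 from the early ages to E16.5. CapFb1a (1.27 ± 0.14, adjusted p = 7.30e-06), CapFb1c (1.69 ± 0.16, adjusted p = 8.40e-07) and MedFb2b (1.08 ± 0.18, adjusted p = 2.03e-04) also rose. In MedFb2a it was at 411 and 335 CPM in the early libraries, 61.1 and 62.4 at E16.5, 46.6 and 48.2 at P0, and 6.22 and 11.2 at W4, so the ages did not overlap between any of these steps. The change from P0 to W4 was -2.43 ± 0.18 there (adjusted p = 1.86e-07) and -2.20 ± 0.18 in MedFb1a (adjusted p = 2.27e-08). CapFb4, the *Pi16*-rich capsular subtype, went the way of MedFb1a and MedFb2a, from 89.0 and 85.96 CPM at E16.5 to 44.1 and 54.2 at P0 and 22.0 and 22.1 at W4 (-1.05 ± 0.17, adjusted p = 2.81e-05). In all, *Sfrp1* rose in 4 subtypes and fell in 7 of 17 between P0 and W4. All 4 rises of *Sfrp1* but only 3 of its 7 falls were called in every refit. In NC it was present at every age (954, 860, 417, 374, 869, 730, 688 and 950 CPM, in the order of age and replicate), with at least 1 UMI in 98.5% of NC cells against 9.003% of capillary endothelial (EnC) cells (median depths of 8770 and 11192 UMIs), and in 78.3% against 1.84% once each cell was thinned to 2000 UMIs. In Mes it was at 998 and 1084 CPM in the early libraries and at 8.39 to 186.9 from E16.5 on, with no test.

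*Sfrp2*, the close relative of *Sfrp1*, fell in 11 of 11 subtypes between the early ages and E16.5 and, unlike *Sfrp1*, rose in CapFb4 after birth. Of the 11 falls of *Sfrp2*, 7 were called in every refit run for that step. Its fall was steep in mural and CapFb1 cells. Pericytes held 334 and 547 CPM in the early libraries and 0.316 to 10.5 in all later ones (-7.77 ± 0.42, adjusted p = 3.44e-08). CapFb1b held 798 and 238 CPM early, 10.6 and 10.9 at E16.5, 17.7 and 8.34 at P0, and 74.3 and 92.8 at W4. There the early fall (-4.94 ± 0.20, adjusted p = 2.52e-09) was followed by a rise from P0 to W4 (2.73 ± 0.23, adjusted p = 1.34e-06), which left W4 above P0 and below both early libraries. CapFb4 held 358 and 1847 CPM early, 285 and 251 at E16.5, 214 and 162.6 at P0, and 657 and 569 at W4 (1.78 ± 0.11 from P0 to W4, adjusted p = 5.64e-12), and its E13.5 library was the highest of all. CapFb1a (1.57 ± 0.23, adjusted p = 1.04e-04), CapFb1c (2.05 ± 0.19, adjusted p = 5.63e-07) and MedFb2b (1.90 ± 0.38, adjusted p = 0.00108) rose too. In MedFb2a it stayed at 1.26 to 5.96 CPM from E16.5 on, after 286 and 52.8 in the early libraries.

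The change of *Sfrp1* and *Sfrp2* between P0 and W4 differed between the summed CapFb1 and the summed medullary subtypes. With the UMIs of CapFb1a to CapFb1c and of the 4 MedFb subtypes summed by library, a comparison chosen after the data were seen, the change was greater in CapFb1 by 2.59 ± 0.15 for *Sfrp1* (adjusted p = 3.69e-07), by 2.62 ± 0.20 for *Sfrp2* (adjusted p = 3.27e-06) and by 1.24 ± 0.14 for *Dkk3* (adjusted p = 7.06e-05). MedFb2b, the least numerous of the 4, rose for both *Sfrp1* and *Sfrp2* (1.08 and 1.90, as above), against the direction of the contrast, and the sums weight each subtype by its UMIs in that library. These were the 3 members called of 9 tested, beside 13.0% of all genes. The difference was -0.32 for *Dkk2* (adjusted p = 0.107), 1.19 for *Rspo1* (adjusted p = 0.112), 0.11 for *Rspo3* (adjusted p = 0.608), -1.03 for *Frzb* (adjusted p = 0.49), 0.03 for *Sfrp4* (adjusted p = 1) and -5.66 for *Wif1* (adjusted p = 0.195), and *Sfrp5* was too low to be tested.

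*Sfrp4*, another Frizzled-related protein, rose in capsular fibroblasts, at every step in CapFb2b. There it was at 0.919 CPM at E12.5, 9.31 at E13.5, 13.3 and 14.3 at E16.5, 93.5 and 67.9 at P0, and 242 and 219 at W4. No age overlapped the one before, and all 3 steps were called (adjusted p = 4.56e-05 to E16.5, 2.43e-05 to P0 and 4.89e-06 to W4), the last 2 at 2.56 ± 0.17 and 1.60 ± 0.13. In CapFb1c it was at 0 and 11.2 CPM early, 3.058 and 3.104 at E16.5, 23.9 and 17.2 at P0, and 129 and 114 at W4 (2.56 ± 0.16 from P0, adjusted p = 5.72e-09). CapFb4 (1.95 ± 0.15, adjusted p = 4.38e-10), CapFb1b (4.12 ± 0.50, adjusted p = 3.19e-05) and CapFb1a (1.85 ± 0.27, adjusted p = 9.14e-05) rose as well, and no subtype fell between P0 and W4. The 2 W4 libraries of CapFb2a lay far apart, at 445 and 134.7 CPM. Means in MedFb1a, MedFb1b and MedFb2a were 0.592, 0.590 and 0.321 CPM. These means leave out MedFb2b, where *Sfrp4* was not tested over age. They do not show that medullary fibroblasts lacked *Sfrp4*, and a rise in MedFb2b is not excluded. The 4 MedFb subtypes together held 114 of its 6135 UMIs (1.86%). These UMIs are not split by subtype here, so the share does not show a low level in MedFb2b either.

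*Sfrp5* was found mainly in NC among these cells, which were sorted without EpCAM+ epithelium. In epithelium it was present too, at 3.5004 to 26.1 CPM in the MmTEC subtype of the 6 genotype libraries (1 to 14 UMIs each) and in bulk mTEC. In the sTEC subtype it was at 97.1 and 125.5 CPM in a *Tbx1+/-* *Crkl+/-* and a WT library, from 9 and 8 cells with 3 and 5 UMIs. Another *Tbx1+/-* *Crkl+/-* library, with 6 sTEC cells, held 0. In PrTEC and McTEC it reached 31.1 and 18.4 CPM. NC held 330 and 444 CPM in the early libraries, 0 and 0 at E16.5, 152 and 55.4 at P0, and 323 and 289 at W4, and these were 63.6% of all its UMIs. The E16.5 libraries together held only 20 NC cells, for which 3 counts would be 12.0 CPM, so the level was at least 27.6-fold higher at E12.5, 37.1-fold at E13.5, 10.2-fold at P0 and 25.995-fold at W4. Over all ages 71.7% of NC cells (42.8% after thinning) held a UMI of *Sfrp5*, against 0.211% of EnC cells (0.0429% after thinning). Outside NC it was found almost only in the early libraries: Mes held 55.9 CPM at E12.5, 81.3 at E13.5 and at most 3.14 later. MedFb1a held 97.8 CPM at E12.5, 14.3 at E13.5 and 0 from E16.5 on, which is at least 293-fold higher at E12.5 than at E16.5, and MedFb2a held 157, 8.86 and then at most 0.259. Proliferating cells (Pr) held 74.9 CPM at E12.5 and 17.0 at E13.5, then 0.316 at most. The neural crest markers moved with it in the same cells: *Foxd3* was at 131.7 CPM at E12.5 and 11.2 at E13.5 in MedFb1a, at 245 and 15.8 in MedFb2a and at 98.9 and 20.1 in Pr, and *Sox10* at 46.5 and 2.76, 50.8 and 6.16, and 38.2 and 4.15, and from E16.5 on neither was above 1.14 CPM in the 3 subtypes. The part of neural crest cells in these early levels was not tested.

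*Frzb* showed an early level that was lost by E16.5. It fell in 9 of 9 subtypes tested from the early ages to E16.5, and all 9 calls were kept when any library from E16.5 on was left out. CapFb4 had too few cells at E12.5 for a test of this step. It held 178.98 and 16.8 CPM (12 and 10 UMIs) in the early libraries and at most 0.795 later. CapFb1a held 81.8 and 16.9 CPM and then at most 0.475 (-6.17 ± 0.36, adjusted p = 2.37e-09 by edgeR). E12.5 was above E13.5 in both, and every later library was below both. In pericytes the fall was -5.93 ± 0.29 (adjusted p = 1.69e-08), from 128 and 18.0 CPM. The E12.5 library held 6 CapFb4 cells, with the capsular markers *Pi16*, *Dpp4* and *Dpt* at 0, and at E13.5 *Pi16* was at 36.9 CPM against at least 1559 in every later library. The part of this in the early CapFb4 levels of *Frzb* and the other members was not tested. After birth *Frzb* rose in 4 of 11 subtypes and fell in 0, and of these calls only that in MedFb1b was kept in every refit. MedFb1b held 17.1 and 3.65 CPM early, 0.6246 and 1.11 at E16.5, 0.940 and 0.638 at P0, and 5.43 and 9.31 at W4 (3.21 ± 0.51, adjusted p = 1.30e-04).

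*Wif1*, the remaining Wnt-binding inhibitor, was close to absent apart from 1 library. Of its 1503 UMIs in the age series, 1314 were in replicate 1 of P0, where the level over all cells was 21.7 CPM against 0.140 to 1.02 in the other 7 libraries. In that library it was present in all 19 subtypes, at 7.01 to 79.6 CPM, beside *Col2a1* in the same 19 subtypes at 52.5 to 1604 CPM. CapFb1a held 42.6 CPM there and 0 in replicate 2, and CapFb2a held 45.8 and 4.96. Of 14 subtypes tested, 9 fell from P0 to W4 and 8 rose from E16.5 to P0; without that library 1 of 3 fell and 0 rose, and no *Wif1* call of these 2 steps was kept in every refit. Over all ages 12 subtypes were called, of which 2, CapFb2a and CapFb2b, were called in every refit.

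**Figure D3:**
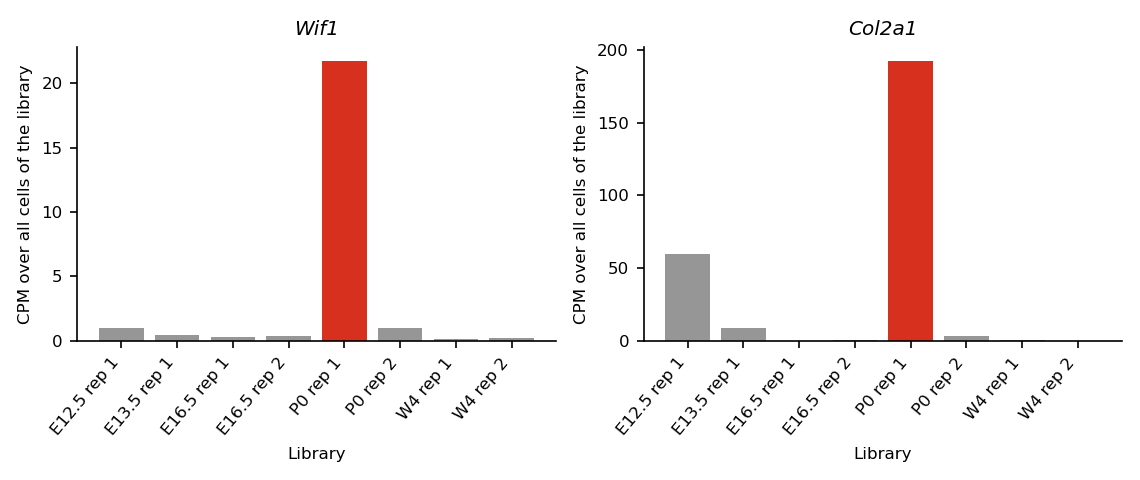
CPM of *Wif1* (left) and of the cartilage gene *Col2a1* (right) over all cells of each library of the age series, as bars from 0, with replicate 1 of P0 in red. *Wif1* is at 21.7 CPM and *Col2a1* at 193 CPM in that library, the highest of the 8 for both.

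*Dkk2*, the Lrp5 and Lrp6 antagonist, was present in CapFb1c at all ages and rose there after birth. In CapFb1c it was at 111.4 and 180.4 CPM in the early libraries, a mean of 120.53 at E16.5, 155.6 and 136.4 at P0, and 199 and 226 at W4. The rise from P0 to W4 was small there (0.53 ± 0.11, adjusted p = 0.00146) and larger in CapFb1b (0.98 ± 0.13, adjusted p = 7.80e-05). MedFb1b held 55.6 and 40.6 CPM early, 28.7 and 29.2 at E16.5, 13.4 and 19.5 at P0, and 52.7 and 57.2 at W4, lowest at P0, with a change of -0.91 ± 0.16 up to P0 (adjusted p = 0.00115) and of 1.68 ± 0.15 after it (adjusted p = 3.86e-07). In CapFb2a (-2.84 ± 0.35, adjusted p = 1.76e-04) and pericytes (-2.67 ± 0.21, adjusted p = 9.95e-07) it fell between the early ages and E16.5. Among endothelial cells it was at 110 ± 106 CPM in the arterial subtype (EnA), at 5.25 in the capillary one and at 5.80 in the venous and lymphatic one (EnVL). EnA held 194, 337, 43.8, 69.2, 76.1, 91.6, 60.04 and 7.19 CPM in the order of age and replicate, the last from 3 UMIs, so the 2 W4 libraries lay further apart than the P0 ones.

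*Dkk3*, which shares its cysteine domains with *Dkk2* but not its best known receptor, rose in 7 of 11 subtypes between the early ages and E16.5, a step at which *Sfrp1*, *Sfrp2*, *Frzb* and *Rspo3* rose in 0. Of the 7 rises of *Dkk3*, 6 were called in every refit run for that step. In CapFb1b it was at 19.1 and 9.89 CPM early, 60.7 and 56.4 at E16.5, 87.1 and 79.9 at P0, and 104 and 98.9 at W4. No age overlapped the one before (2.48 ± 0.17 to E16.5, adjusted p = 1.91e-07; 0.44 ± 0.07 to P0, adjusted p = 0.00111). CapFb1a rose by 2.94 ± 0.13 to E16.5 (adjusted p = 3.00e-11) and then held 72.4 to 93.4 CPM in all 6 libraries. In CapFb4, MedFb1a and MedFb1b it fell after birth. CapFb4 held 41.999 and 44.6 CPM at E16.5, 83.5 and 87.5 at P0, and 21.4 and 24.9 at W4 (-1.77 ± 0.15, adjusted p = 2.67e-09), and MedFb1b held 53.3 and 48.5, 59.7 and 61.1, and 18.998 and 31.1 (-1.27 ± 0.16, adjusted p = 1.32e-05). Both fell below their E16.5 level at W4. MedFb1a fell likewise (-1.37 ± 0.21, adjusted p = 7.16e-05). In MedFb2a the change was -0.69 (adjusted p = 0.00889), not called in every refit, and in MedFb2b -0.39 (adjusted p = 0.337). Pericytes held 19.4 and 16.2 CPM early and 6.29 and 7.79 at E16.5, the one subtype with a fall at that step (-1.05 ± 0.29, adjusted p = 0.0103), which was not called in every refit.

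*Rspo1*, an activator by way of Lgr receptors, was a gene of the mesothelium and of the capsular fibroblasts, which held 46.3 and 45.04% of its UMIs. Mes held 268 CPM at E12.5, 211 at E13.5, 327 in the E16.5 library with 5 cells, 445 and 632 at P0, and 360 and 451 at W4. A UMI of *Rspo1* was found in 95.01% of Mes cells (57.8% after thinning) and in 0.154% of NC cells (0 of 650 after thinning), at median depths of 13693 and 8770 UMIs. Among capsular cells it rose after birth. CapFb3 held 11.8 and 3.11 CPM early, 35.7 and 42.98 at E16.5, 68.7 and 54.9 at P0, and 138.7 and 177.3 at W4, each age from E16.5 on above the one before, with changes of 2.94 ± 0.30 to E16.5 (adjusted p = 2.70e-04) and of 1.48 ± 0.18 from P0 to W4 (adjusted p = 0.00129). CapFb2b held 9.19, 7.90, 10.2, 11.2, 21.1, 17.7, 49.4 and 71.7 CPM in the order of age and replicate, highest in both W4 libraries (1.76 ± 0.20, adjusted p = 4.96e-05). CapFb4 (2.24 ± 0.37, adjusted p = 3.97e-05), CapFb1c (1.74 ± 0.29, adjusted p = 2.24e-04) and CapFb2a (1.64 ± 0.24, adjusted p = 8.67e-04) rose as well. Between P0 and W4, 9 of 11 subtypes rose and 0 fell, and 5 of the 9 rises were called in every refit.

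*Rspo3*, the other R-spondin, went the opposite way: 7 of 16 subtypes fell between P0 and W4 and 0 rose, and 8 of 11 fell between the early ages and E16.5. Of these falls, 5 of the 7 and 6 of the 8 were called in every refit run for their step. CapFb1a held 255 and 208 CPM early, 34.4 and 36.8 at E16.5, 52.5 and 56.1 at P0, and 22.0 and 26.3 at W4. It fell by 2.40 ± 0.11 up to E16.5 (adjusted p = 3.80e-11) and by 1.06 ± 0.15 after P0 (adjusted p = 8.39e-05), and its W4 libraries were the lowest. CapFb2b fell from 288 and 309 CPM to 19.3 and 27.1 at E16.5 (-3.38 ± 0.19, adjusted p = 3.85e-08). MedFb2a held 27.7 and 23.9 CPM early, 47.2 and 46.3 at E16.5, 41.2 and 48.9 at P0, and 9.59 and 14.7 at W4, with the fall after birth alone (-1.91 ± 0.17, adjusted p = 1.30e-06). Pericytes (-1.59 ± 0.20, adjusted p = 9.10e-05), MedFb1a (-1.45 ± 0.27, adjusted p = 3.46e-04) and EnVL (-3.53 ± 0.60, adjusted p = 0.00245) fell at the same step. CapFb3, its site of highest level, held 319 and 325 CPM early, 59.3 and 70.5 at E16.5, 128 and 73.2 at P0, and 59.7 and 201 at W4, and the W4 pair spanned the P0 pair.

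In bulk, members were compared between sorted populations and between ages. Levels there are CPM without correction for gene length, so that they are compared within a gene only, and in bulk samples fewer cells of a type and less RNA per cell cannot be told apart. With each of the 4 nonepithelial populations set against the mean of the other 3 at each age, 39 of 80 member tests were called (26 higher, 13 lower), beside 18.8% of all tests. The gp38+CD26+ fibroblasts were higher than the mean of the other 3 for 7 members at W4. *Sfrp4* was at 601 ± 177 CPM there and at 31.4 in gp38+CD26-, 7.11 in Ly51+gp38- and 0 in CD31+ cells (adjusted p = 5.05e-09). *Sfrp2* was at 635 ± 121 CPM there and at 22.4, 17.8 and 0 in the same order (adjusted p = 2.86e-09), and *Rspo1* at 47.5 ± 37.7 and at 2.32, 1.23 and 0 (adjusted p = 2.42e-05). *Sfrp1* was higher by 4.17 ± 0.50 (adjusted p = 3.52e-10), and *Dkk2*, *Dkk3* and *Rspo3* were called too. For *Rspo3* the level was 6.36 CPM, beside 7.09 in gp38+CD26- cells, 2.78 in Ly51+gp38- cells and 0 in CD31+ cells. The gp38+CD26- fibroblasts were higher for *Wif1*, the Wnt-binding inhibitor that was scarce in single cells, at 5.75 ± 5.51 CPM at P0 (adjusted p = 3.22e-04) and 1.98 ± 1.67 at W4 (adjusted p = 9.19e-05), where the other 3 populations were at 0 to 0.506. They were also higher for *Frzb* at W4 (6.002 ± 4.37 CPM against 0 to 0.760, adjusted p = 0.00537). Some of the 7 members above were called higher in gp38+CD26- cells at W4 too: *Sfrp1* (1.81), *Sfrp4* (3.19), *Dkk3* (4.96) and *Rspo3* (3.73). *Dkk3* was even called higher in Ly51+gp38- cells at W4 (2.64). The mean of the other 3 was taken on the log scale, where CD31+ cells at 0 lower it, so these calls do not single out 1 population. *Sfrp1* was lower in CD31+ endothelium at both ages (-5.42 and -5.13). The calls of *Sfrp5* in Ly51+gp38- cells rested on 1 library at each age, at 5.84 CPM at P0 and 9.09 at W4.

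**Figure D4:**
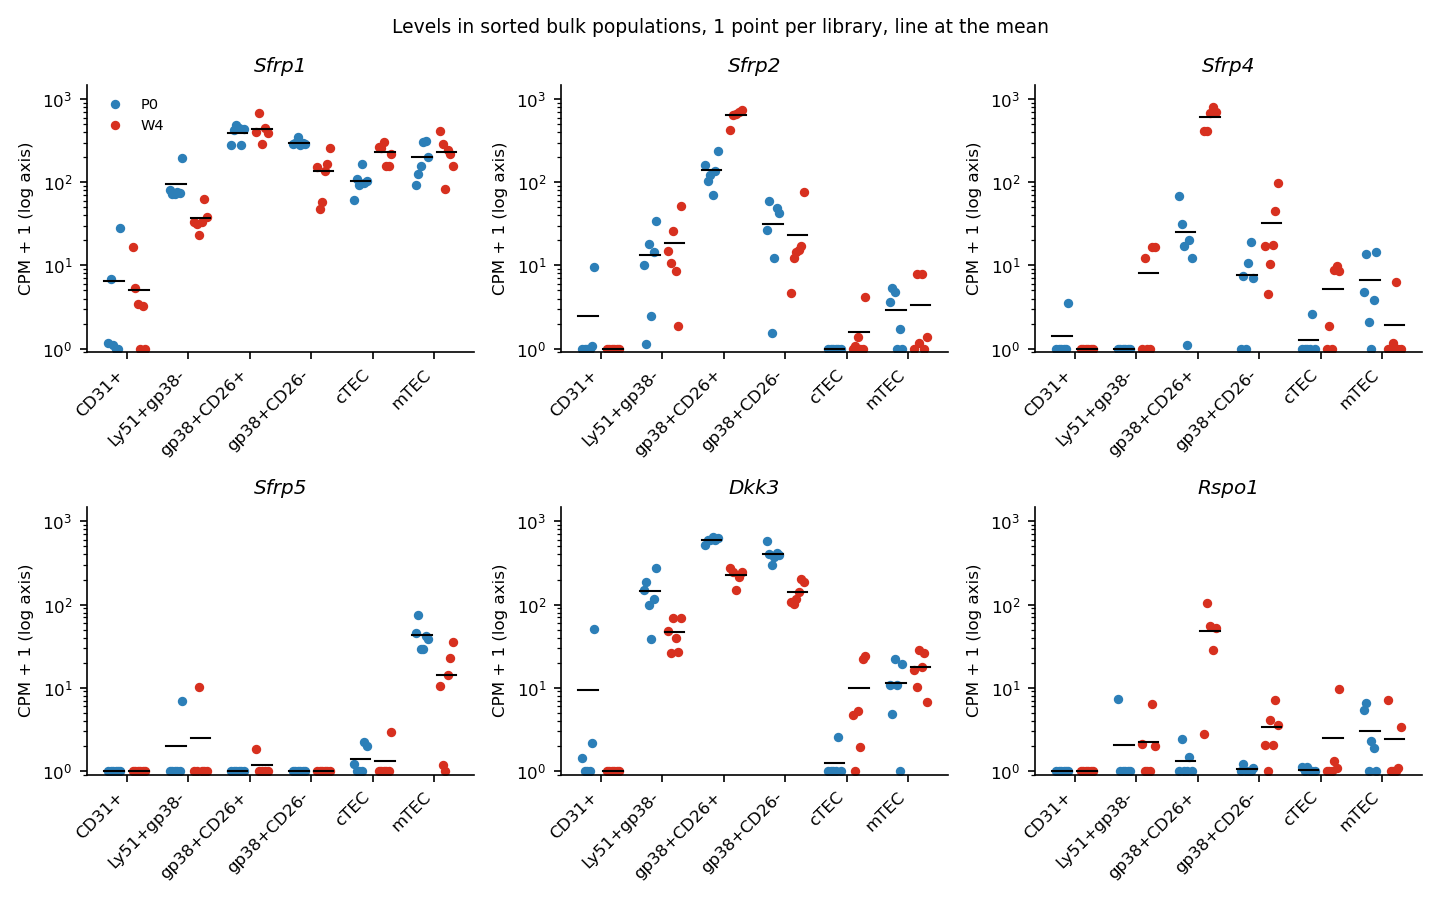
Bulk level (CPM + 1, log axis) of *Sfrp1*, *Sfrp2*, *Sfrp4*, *Sfrp5*, *Dkk3* and *Rspo1* in 6 sorted populations, 1 point per library, P0 in blue and W4 in red, with a line at each mean. *Sfrp4* in gp38+CD26+ cells lies at 0.0883 to 68.1 CPM at P0 and at 410 to 799 at W4, and *Dkk3* there is lower at W4 than in any P0 library.

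Between P0 and W4, 4 of 60 member tests rose (beside 6.05% of all tests) and 4 fell (beside 3.81%) in the fit over all populations. In gp38+CD26+ fibroblasts *Sfrp4* was at 68.1, 30.4, 16.1, 0.0883, 19.2 and 11.2 CPM at P0 and at 410, 417, 679, 799 and 699 at W4. The ages did not overlap, and the change was 4.82 ± 1.42 (adjusted p = 0.0198). *Rspo1* was at 0, 1.40, 0, 0, 0.473 and 0 CPM at P0 and at 1.79, 104, 53.6, 27.7 and 50.9 at W4, also without overlap (7.46 ± 2.18, adjusted p = 0.0184). Beside these changes, the mesothelial marker sum of this population was 3320 CPM at W4, 32.2 times that at P0, and the capsular fibroblast sum 987 at P0 and 12472 at W4, against 45579 and 48756 for the general fibroblast sum; their part in the changes was not tested. *Sfrp2* was at 161.3, 104.4, 120.2, 68.7, 134.3 and 239 CPM at P0 and at 430, 649, 653, 704 and 741 at W4. It was not called in the fit over all populations (2.39 ± 1.23, adjusted p = 0.24) and was called when the 11 libraries of this population were fitted alone (2.32 ± 0.27, adjusted p = 1.34e-04), a fit chosen after the data were seen in which 13.6% of all tests were called.

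*Dkk3* was lower at W4 than at P0 in each of the 3 mesenchymal populations when they were fitted alone. In gp38+CD26+ cells it was at 524 to 639 CPM in the 6 P0 libraries and 148.9 to 276 in the 5 W4 libraries, with no overlap (-1.31 ± 0.16, adjusted p = 1.48e-04). In gp38+CD26- cells it was at 409 ± 90.5 and 141 ± 42.2 CPM (-1.40 ± 0.20, adjusted p = 1.50e-04), and in Ly51+gp38- cells at 142.6 ± 80.7 and 45.4 ± 19.2 (-1.52 ± 0.41, adjusted p = 0.026). In the fit over all populations none of these 3 was called (adjusted p = 0.474, 0.364 and 0.308 in the same order). *Sfrp1* was likewise lower at W4 in gp38+CD26- cells (299 ± 23.5 and 136.6 ± 78.2 CPM; -1.01 ± 0.32, adjusted p = 0.0328) and in Ly51+gp38- cells (94.6 ± 49.4 and 36.1 ± 13.6; -1.25 ± 0.33, adjusted p = 0.0209) when fitted alone, and neither was called in the fit over all populations (adjusted p = 0.44 and 0.278). It was at 393 ± 90.8 and 442 ± 143.5 CPM in gp38+CD26+ cells. Whether the 2 fibroblast populations changed differently with age was tested by an interaction term, and 0 of 10 members were called by edgeR (0 with an unadjusted p under 0.05, 1 by DESeq2), beside 3.39% of all genes; the difference was 2.62 ± 1.68 for *Sfrp2* (adjusted p = 0.616), 2.39 ± 1.76 for *Sfrp4* and 1.26 ± 0.93 for *Sfrp1*.

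The other bulk age calls lay at low levels. *Sfrp4* in Ly51+gp38- cells was at 0 in all 6 P0 libraries and at 0, 11.3, 0, 0, 15.8 and 15.5 CPM at W4 (adjusted p = 0.00224 by edgeR). With the counts of each age pooled, W4 was at least 168.4-fold higher. That bound covers counting error only, and some W4 libraries were at 0 too. *Frzb* there was at 4.56 and 3.79 CPM in 2 of 6 P0 libraries and at 0 in the other 4 and in all W4 libraries (adjusted p = 0.0464). Without either of those 2 libraries the adjusted p was 0.0825 and 0.0786, and without any of the W4 libraries left out in turn it was 0.071 to 0.0766. In CD31+ cells the falls of *Dkk3* (adjusted p = 2.24e-05), *Rspo3* (adjusted p = 0.00502) and *Sfrp2* (adjusted p = 0.0373) rested mostly on replicate 6 of P0, which held 49.4, 10.2 and 8.57 CPM against at most 1.80 in the other 5 libraries for any of the 3; without it the adjusted p was 0.0458, 0.0466 and 1. *Dkk3* in cTEC was at 0, 0, 0, 0, 1.53 and 0 CPM at P0 and at 3.65, 0, 4.20, 0.927, 21.0 and 23.2 at W4 (4.98 ± 1.09, adjusted p = 8.73e-04). The fibroblast marker sum of these cTEC libraries was 65.2 CPM at P0 and 842 at W4, and its part in the *Dkk3* change was not tested.

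Thymic epithelium held some members itself. When all 4 nonepithelial populations were set against cTEC and mTEC, 9 of 20 member tests were called (5 higher, 4 lower), near the 41.2% of all tests. The contrast averages populations on the log scale, including those at 0. *Wif1* was called lower at P0 (-2.17), although gp38+CD26- cells held 5.75 CPM and cTEC and mTEC 0.632 and 1.03. At W4 no SE was obtained for *Rspo3*, *Wif1*, *Frzb* and *Sfrp2*, and that of *Sfrp4* was 45.7, so these tests could not decide. Since CD31+ cells were at 0 for several members, the gp38+ fibroblasts alone were set against cTEC and mTEC after the data were seen, and 14 of 20 tests were called, beside 38.6%. *Dkk3* (8.32 ± 0.82 at P0, adjusted p = 1.66e-13; 4.14 ± 0.67 at W4, adjusted p = 4.91e-07) and *Sfrp2* (adjusted p = 6.88e-08 at P0, with cTEC at 0; 6.88 ± 1.07 at W4, adjusted p = 2.76e-07) were higher in fibroblasts at both ages, as were *Dkk2*, *Rspo3* and *Sfrp4*. *Sfrp1* was higher in fibroblasts at P0 (1.43 ± 0.46, adjusted p = 0.0098), and at W4 the difference was 0.33 ± 0.47 (adjusted p = 0.686). *Sfrp5* was higher in epithelium at P0 (adjusted p = 6.73e-05) and at W4 (adjusted p = 0.00356). In mTEC it was at 44.8, 74.6, 28.1, 28.2, 40.6 and 37.8 CPM at P0 and at 13.2 ± 13.3 at W4, while all gp38+ libraries but 1 (0.820 CPM, at W4) were at 0. The difference between the ages in mTEC was not called (-1.50 ± 1.65, adjusted p = 0.812).

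Within the epithelium, 12 of 20 member tests differed between mTEC and cTEC, beside 32.2% of all tests, another comparison chosen after the data were seen, as was that of mTEClo with mTEChi at W4. All 12 were higher in mTEC: at P0 all members but *Wif1* and *Sfrp1*, and at W4 *Sfrp5*, *Rspo3*, *Frzb* and *Dkk2*. In mTEC at P0 the means were 1.91 CPM for *Sfrp2*, 2.03 for *Rspo1*, 5.63 for *Sfrp4* and 10.4 for *Dkk3*, each at 0 in at least 1 library. For *Rspo3*, *Frzb*, *Dkk2* and *Sfrp5* they were 7.20, 7.76, 11.4 and 42.3 CPM. At W4 the mTEC means of these were 1.25 (median 0), 9.03, 11.9 and 13.2 CPM in the same order, each at 0 in at least 1 library. The share of all genes by direction is not given for this comparison. Between mTEClo and mTEChi 4 of 10 members were lower in mTEClo, beside 14.4% of all genes, and 0 were higher, beside 4.66%. *Dkk2* was at 14.6 ± 6.77 CPM in mTEChi and 0.0844 in mTEClo (adjusted p = 7.48e-05), and *Frzb* at 8.97 ± 4.88 in mTEChi and 0 in all 6 mTEClo libraries (adjusted p = 0.0059). *Sfrp4* was also lower in mTEClo (0.0566 against 5.72 CPM, adjusted p = 0.00726), as was *Wif1* (adjusted p = 0.0268), at 2.28, 0.494 and 2.55 CPM in 3 mTEChi libraries and at 0 in the other 3 and in all mTEClo libraries. *Sfrp1* was at 234 ± 30.2 CPM in mTEChi and 858 ± 347 in mTEClo, a difference that missed the threshold (1.63 ± 0.66, adjusted p = 0.0723). In cTEC *Sfrp1* was at 104 ± 35.0 CPM at P0 and 227 ± 61.97 at W4 (1.18 ± 0.24, adjusted p = 0.00253, cTEC fitted alone), which was not called in the fit over all populations (1.23 ± 0.65, adjusted p = 0.259). The fibroblast sum given above rose in these cTEC libraries, as did a sum of thymocyte and leukocyte markers (12.4 and 631 CPM), and their part in the *Sfrp1* change was not tested.

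In newborn *Tbx1+/-* *Crkl+/-* mice no member was called against WT littermates. Of 41 pairs of member and subtype that could be tested, in 15 subtypes, 0 were called by edgeR and 0 by DESeq2, beside 0.0481% of all pairs, and 9 had an unadjusted p under 0.05 (7828 of 116534 over all pairs), all 9 lower in *Tbx1+/-* *Crkl+/-*. *Sfrp1* was tested in 15 subtypes, *Dkk3* in 9, *Rspo3* in 8, *Dkk2* in 5 and *Sfrp2* in 4, and the other 5 members were too low to be tested in any. The log2 differences ran from -1.08 (*Rspo3* in CapFb1c) to 0.80 (*Dkk2* in MedFb2a). *Rspo3* in CapFb1b was at 52.3, 58.3 and 40.1 CPM in *Tbx1+/-* *Crkl+/-* and 62.8, 89.1 and 112.3 in WT. The 3 and 3 libraries did not overlap, with a difference of -0.85 (95% interval -1.39 to -0.31, adjusted p = 0.429 by edgeR). *Sfrp1* in MedFb2a was at 52.3, 30.9 and 24.5 CPM against 68.8, 50.4 and 69.4 (-0.95 ± 0.31, adjusted p = 0.558 by edgeR), and these overlapped. *Dkk3* in CapFb1b was at 64.7, 72.3 and 44.9 CPM against 102, 90.2 and 89.5 (-0.62 ± 0.25, adjusted p = 0.662 by edgeR), again without overlap. In epithelial subtypes of these data, which kept the EpCAM+ cells, *Sfrp1* in ItTEC was at 118.9, 85.97 and 96.3 CPM against 176.5, 221 and 136.6 (-0.80 ± 0.32, adjusted p = 1 by edgeR), with all 3 below all 3 WT libraries. The remaining 5 were *Rspo3* in CapFb1c, *Sfrp1* in McTEC and PcTEC, *Sfrp2* in CapFb4 and *Dkk2* in CapFb1a. The *Tbx1+/-* *Crkl+/-* libraries held a median of 2391 to 2551 UMIs per cell and the WT libraries 2577 to 4686, and the part of this depth in the differences was not tested.

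**Figure D5:**
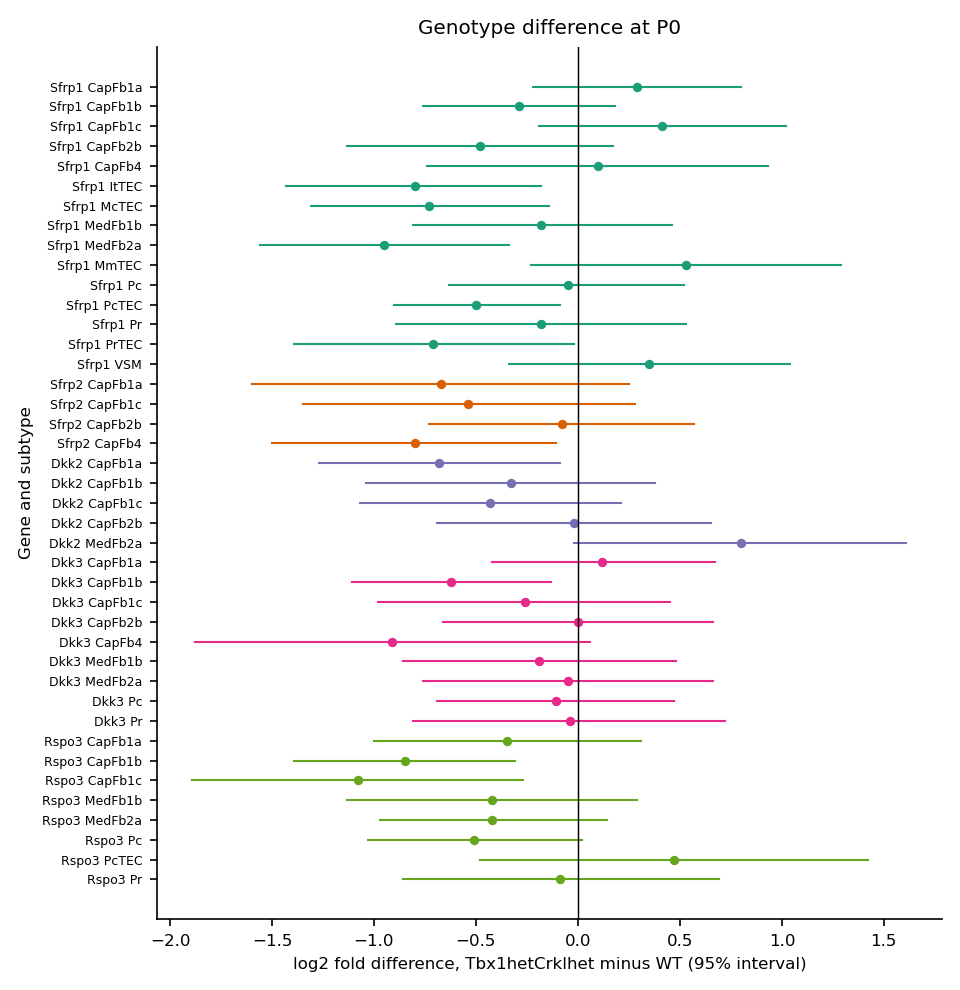
Log2 difference between *Tbx1+/-* *Crkl+/-* and WT newborn libraries for each of the 41 tested pairs of member and subtype, as a point with its 95% interval and a line at 0. The differences run from -1.08 to 0.80 and none passed the adjusted threshold.

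Of 69 other genes of the Wnt pathway listed by role, 66 could be tested in bulk. Between P0 and W4, 38 of 396 tests were called, 19 higher and 19 lower, beside the 6.05% higher and 3.81% lower of all tests given above. Of these, 12 were in CD31+ cells (4 higher, 8 lower), where 10.5% of all genes were called, and 10 in Ly51+gp38- cells (7 higher, 3 lower), where 11.6% were. *Tcf7*, a nuclear effector of the pathway and a T cell gene, rose in cTEC from 10.7 ± 7.61 to 502 ± 235 CPM (5.66 ± 1.07, adjusted p = 1.05e-04), beside the rise of the thymocyte and leukocyte sum given above. The other 3 with the smallest adjusted p were receptors at low levels: *Fzd7* in CD31+ cells (0 at P0, mean of 0.896 CPM at W4 from a single library at 5.38, adjusted p = 6.24e-05), *Ror1* in CD31+ cells (0.0548 and 1.92 CPM, adjusted p = 3.84e-04) and *Fzd6* in Ly51+gp38- cells (0 and 1.75 CPM, adjusted p = 1.52e-04). Against epithelium the nonepithelial populations were lower for 21 and higher for 6 pathway genes at P0 (39.7% of all genes were called), and lower for 25 and higher for 5 at W4 (42.7%), with a median difference of -1.44 and -1.34 against -0.37 and -0.48 over all genes. These were 27 and 30 of 66 genes, near the share over all genes. Of the 36 tests of Wnt ligands, 17 were lower and 2 higher, beside 41.2% of all tests called in either direction. The share by direction over all genes is not given here. At P0 *Kremen2*, a Dkk receptor, was at 79.1 CPM in cTEC and 102 in mTEC and at most 0.0163 in the nonepithelial populations (adjusted p = 3.44e-20). *Rnf43*, a ligase that R-spondins act on, was at 65.9 and 34.1 CPM (adjusted p = 1.26e-15), and the ligand *Wnt7b* at 19.2 and 26.3 (adjusted p = 8.62e-13), both at 0 in the nonepithelial libraries. *Fzd6* was also called (adjusted p = 5.03e-15), at 74.3 and 57.2 CPM in cTEC and mTEC and at 0 in Ly51+gp38-, 0.0554 in gp38+CD26- and 2.06 in gp38+CD26+ cells, although CD31+ cells held 87.4.

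The genes whose pattern was nearest to each member are given as a description, by Pearson's r of log2(CPM + 1) over 138 sums of subtype and library among 12182 genes; the sums of a library share its depth and capture. *Dkk3* was nearest to fibrillar collagens (*Col1a2* 0.91, *Col1a1* 0.90, *Col3a1* 0.89). *Sfrp5* lay beside the neural crest genes *Foxd3* and *Sox10* (0.86 each) and *Ppp1r14c* (0.89), and *Rspo1* beside the mesothelial factor *Wt1* (0.84), *Tbx5* (0.82) and *Cdon* (0.80). *Wif1* lay beside *Ucma* (0.89), *Col11a2* (0.88) and *3110079O15Rik* (0.90), of which the first 2 were among the cartilage genes of replicate 1 of P0. Nearest to *Sfrp1* were *Ephb2* (0.89), *Tenm3* (0.81) and *Gng8* (0.79), to *Sfrp2* *Mfap4* (0.84), *Sulf2* (0.82) and *Ptprd* (0.81), and to *Sfrp4* *Angptl1* (0.85), *Ackr4* (0.82) and *Epyc* (0.82). *Frzb* was nearest to *Foxd1* (0.82), *Tfap2b* and *Crabp2* (0.81 each), *Rspo3* to *Pkdcc* (0.85), *Meis1* and *Rarb* (0.79 each), and *Dkk2* to *Lhx8* (0.73), *Shisa3* (0.69) and *Fgfr1* (0.66), the weakest likeness of the 10. Among the members themselves the highest values were 0.71 for *Sfrp1* with *Sfrp2*, 0.61 for *Sfrp1* with *Rspo3* and 0.56 for *Dkk3* with *Rspo3*, and the lowest was -0.21, for *Dkk3* with *Sfrp5*.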

How the data were processed

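The authors deposited the single-cell data as raw UMI counts per gene and cell with a subtype label per cell, after filters that the study gives as over 1000 genes per cell and below 5% mitochondrial UMIs (cells in the files hold at least 999 genes in the age series and 876 in the genotype data) and after removal of doublets and contaminant clusters. They deposited the bulk data as raw read counts per Ensembl gene from an ultra-low input protocol. The submitters' processing notes name mm10, GRCh38, Cell Ranger 3.1.0, STAR 2.5.3a and HTSeq; positions were taken from GENCODE vM21 on GRCm38. Bulk IDs were turned into symbols for 37607 of 39179. UMIs were summed per subtype and library (at least 5 cells for a level, 20 for a test). Counts were tested with edgeR 4.0.16 (quasi-likelihood, TMM, filterByExpr), with Benjamini-Hochberg adjustment over all genes of a comparison. The bulk fit held all 14 groups and libraries of at least 1000000 counts. Doublets were not called again. Shares of cells were thinned to 2000 UMIs. Floors of 3 counts and the fold bounds (at least so many fold) cover counting error only. The intervals of the genotype differences were drawn from the SE of the edgeR fit, which includes the spread between libraries. They can be slightly narrower than the test: *Sfrp1* in PrTEC had an interval of -1.39 to -0.02 at an unadjusted p = 0.054 by edgeR.

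The rule was to name all 10 members in every comparison, and where the text leaves one out it is in the counts; of 69 pathway genes the 4 with the smallest adjusted p in each of 2 bulk comparisons are named, and the 3 genes nearest to each member. Members and lists were chosen with earlier results of these data known. The samples are those the labels list separately: at E16.5, P0 and W4 in single cells and in the genotype data they are separate thymi by the study, and where no source says so, p-values measure only the spread between the libraries. Simulated data were tried for bulk age in gp38+CD26+ cells and, in CapFb1a, for W4 against P0 and for genotype. The genes changed there lay above the median level, and no other comparison was simulated. Alternatives were DESeq2 1.42.0, DESeq2-type size factors, no filter, at least 50 cells, the title prefixes of the bulk libraries (TXCK and DFCK, whose meaning is not given in the sources used here), a replicate block and leaving out libraries. Promoters were matched by symbol; protein sequences were not used here.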

Additional observations from a re-analysis of the deposited data

Results flagged for a closer look

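In 10 of 55 tested sets of a member in a bulk group, 1 library lay further from the other 5 than Dixon's 95% limit allows. The limit is for normally distributed values, and a set with 1 library above 0 and the others at 0 always exceeds it. The number found is therefore not set against chance. Other sets of that form, such as *Wif1* in cTEC at P0 (3.79 CPM and 0 in the others), are not listed here. In CD31+ cells at P0, replicate 6 held *Dkk3* at 49.4 CPM, *Rspo3* at 10.2 and *Sfrp2* at 8.57. In 1 library of Ly51+gp38- cells at P0, *Sfrp1* was at 195 CPM, and the other 5 lay at 71.0 to 79.3. In gp38+CD26+ cells at P0, *Dkk2* was at 552 CPM in a single library and 102 to 212 in the others, and *Rspo1* at 1.40. In gp38+CD26- cells, *Sfrp1* was at 345 CPM at P0 (282 to 299 in the others) and *Sfrp2* at 75.2 at W4 (3.70 to 16.1 in the others). In epithelium at P0, *Sfrp5* was at 74.6 CPM in mTEC (28.1 to 44.8 in the others) and *Dkk3* at 1.53 in cTEC (0 in the others).

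The change from P0 to W4 differed between the CapFb1 subtypes and the medullary fibroblasts for 3 members, tested on summed UMIs with edgeR in a comparison chosen after the data were seen, by 2.59 for *Sfrp1*, 2.62 for *Sfrp2* and 1.24 for *Dkk3* on the log2 scale, from 2 libraries at each age; MedFb2b itself rose for *Sfrp1* (1.08) and *Sfrp2* (1.90).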

How the results depend on the processing

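Counts of member calls moved by over 1.5 times in these settings; the cause was not tested beyond the fewer libraries or cells that some of them hold. Between P0 and W4 in bulk, 8 calls became 2 with the DFCK libraries alone and 2 with the TXCK libraries alone; population calls went from 39 to 21 with DFCK alone, and nonepithelial calls from 9 to 5 with TXCK alone. The age by fibroblast population term gave 0 calls and DESeq2 gave 1, *Sfrp5*, from a single library. From E16.5 to P0 the 38 calls became 23 with DESeq2 and, with more pairs tested (166), 71 without a filter, and from the early ages to E16.5 the 57 of 92 became 37 of 59 with at least 50 cells. With libraries left out in turn, calls ran from 19 (without E16.5 replicate 1) to 61 (without P0 replicate 2) for E16.5 to P0, with 22 without E16.5 replicate 2, from 50 to 81 for P0 to W4, 48 to 66 for the early ages to E16.5 (neither early library was left out), 102 to 126 over all ages, 7 to 8 for bulk age, 37 to 38 for populations, 9 to 9 for nonepithelial against epithelial, and 0 for the fibroblast term and for genotype. Deviations of same-numbered libraries had r = -0.12, 0.06 and -0.30 in the age series and 0.27, -0.05 and -0.64 between genotypes. With so few libraries per group, these values cannot decide whether the numbers pair libraries. With a replicate block the calls were 120 over all ages, 73 from P0 to W4, 46 from E16.5 to P0, 59 from the early ages and 0 for genotype. Of the single called pairs, DESeq2 lost 46, DFCK alone kept 28 and lost 27, and TXCK alone kept 38 and lost 17; *Rspo1* in Ly51+gp38- cells at P0 turned to -1.93 with DFCK alone and *Wif1* against epithelium at P0 to 1.32 with TXCK alone. The subtype of highest level changed for *Sfrp2* (CapFb3, 44.1% of thinned cells), *Sfrp4* (CapFb2b, 77.9 CPM per cell and 11.1% of thinned cells) and *Wif1* (CapFb2a, 7.21 CPM per cell and 1.24% of thinned cells). *Sfrp5* in NC at E16.5 rested on 20 cells, and 5 members had too few counts to be tested between genotypes.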
